A study of Mus musculus with 217 samples.

Results

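Medium spiny neurons, the output cells of the striatum, make peptide transmitters beside GABA, and 5 genes for the precursors of such peptides are described here: Tac1, Penk, Pdyn, Nts and Cartpt. They were chosen by symbol and are 5 of the 12270 genes listed in at least 1 of the 3 deposited tables. The nucleus accumbens table (NAc, the ventral striatum, 11867 genes) lists all 5. The tables of the dorsomedial striatum (DMS, 12101 genes) and the dorsolateral striatum (DLS, 11394 genes) list the other 4, and Cartpt was analysed in NAc alone.

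All groups were C57BL/6J mice of about 10 weeks, with no treatment or allele named, kept in 12 h of light and 12 h of dark. The groups differed by region, sex and time of death. Time is given as Zeitgeber time (ZT, hours after lights on), at ZT2, 6 and 10 in the light and ZT14, 18 and 22 in the dark. RNA of 1 mm punches was sequenced in 77 NAc libraries (37 female, 40 male), 70 DMS libraries (34 and 36) and 70 DLS libraries (35 and 35), with 11 to 14 libraries per region and time. Of 93 animals, 47 gave all 3 regions, 30 gave 2 and 16 gave 1. A punch holds many cell types, so that fewer cells of a type and less RNA per cell cannot be told apart.

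Medium spiny neurons fall into a direct pathway, which carries the dopamine receptor Drd1, and an indirect pathway, which carries Drd2. Tac1, the precursor of substance P and neurokinin A, and Pdyn, the precursor of the dynorphins, mark the direct pathway, and Penk, the precursor of the enkephalins, marks the indirect pathway. Nts gives neurotensin and Cartpt gives CART peptide, both known from neurons of the accumbens. The precursors are cut by convertases in secretory granules, and the peptides act on receptors coupled to G proteins: substance P on Tacr1, dynorphins mainly on Oprk1, enkephalins on Oprd1 and Oprm1, and neurotensin on Ntsr1.

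In the mouse genome GRCm38 (GENCODE release M21) Tac1 (ENSMUSG00000061762) lies on the plus strand of chromosome 6, 7554879 to 7565834. The others lie on minus strands: Penk (ENSMUSG00000045573) on chromosome 4, 4133531 to 4138819, Pdyn (ENSMUSG00000027400) on chromosome 2, 129686565 to 129699844, Nts (ENSMUSG00000019890) on chromosome 10, 102481756 to 102490486, and Cartpt (ENSMUSG00000021647) on chromosome 13, 99898489 to 99901091. All 5 are protein coding. Penk overlaps the antisense transcript A830012C17Rik. Whether counting used the strand is not given in the sources used here, so the effect of this overlap on the Penk count is not known.

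Promoter sequences of RefSeq (GRCm38.p6) were matched by symbol for 4 of the 5 genes, in 5 windows, with no window for Penk. The sequences around the motifs found are shown because cAMP and activity act on peptide genes through such motifs, which a list of regulators below follows over the day. Both strands were searched for TGACGTCA (the cAMP response element), TGCGTCA (a variant of it known from peptide genes), TGAGTCA (the AP-1 site) and CACGTG (the E-box that clock factors bind). No motif contains another. Capitals mark the motif. The Tac1 sequence is chr6:7554811-7554878 on the plus strand, the stretch before the annotated gene, with TGCGTCA at position -199 counted from the RefSeq start site. The other 3 are windows of at most 30 bases: the E-box of Tac1 at -61 (chr6:7554989-7555016, plus), the AP-1 site of Nts at -207 (chr10:102490608-102490636, minus), and the cAMP response element of Cartpt at -112 (chr13:99900777-99900806, minus).
Tac1, upstream: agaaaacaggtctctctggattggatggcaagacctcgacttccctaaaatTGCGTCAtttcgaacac
Tac1, E-box: ggggagagtgtCACGTGgctctacaggc
Nts, AP-1 site: aactctttctgTGAGTCAgaaatcctgag
Cartpt, cAMP response element: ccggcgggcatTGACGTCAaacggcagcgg
The E-box of Tac1 and the element of Cartpt lie within annotated exons of GENCODE, and the other matches lie outside them. None of the 4 motifs lay in either Pdyn window, which says only that these letters are not there. Of 32851 RefSeq promoter windows, 1.79% held TGACGTCA, 2.12% TGCGTCA, 5.2% TGAGTCA and 7.15% CACGTG. These matches are a description and were set against no binding data.

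Facts of the libraries bear on the values below. Markers of striatal tissue were listed in every region. These were all 12 shared markers of medium spiny neurons, all 7 direct-pathway markers and 5 of 6 indirect-pathway markers. Being listed is a property of a whole table and does not show what a single punch held. The summed level of 4 ventral markers (medians of 21031, 8299 and 4128 normalised counts in NAc, DMS and DLS) fell from ventral to lateral, and that of 2 dorsolateral markers (4044, 10703 and 20003) rose. The ranges of neighbouring regions overlapped for both sums, with ventral sums down to 10008 in NAc and up to 10309 in DMS. Markers of neighbouring tissue varied most: summed cortical markers ran from 110 to 20630 in NAc, 109 to 7699 in DMS and 157 to 16842 in DLS, and those of choroid plexus from 68.2 to 72071 in DMS. Whole reads could be recovered in DMS and DLS and not in NAc, where the depth is unknown. The DMS libraries fell into 37 with a low share of mitochondrial ribosomal RNA (19.02 to 29.9% of normalised counts) and 33 with a high share (35.3 to 52.6%). The high class took in every one of the 26 animals with a number from 31 up, and it made up 10 of 12 libraries at ZT18 but 2 of 12 at ZT22. Class and time overlap in DMS, and DMS results are given with and without a term for the class. The share also varied in NAc (22.69 to 50.56%) and DLS (13.17 to 53.03%), where the main fits hold no term for it. The lowest DLS share, 13.17%, was that of male M13 at ZT6, and the next lowest was 27.7%, in female F3 at ZT22. Tac1 correlated with the share with r = 0.47, 0.83 and 0.28 in NAc, DMS and DLS.

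Penk was by far the most abundant of the 5 in all 3 regions, and the mean levels of Pdyn and Nts fell from NAc over DMS to DLS. On the deposited scale (log2 of normalised counts) Penk had a mean of 15.52 ± 0.30 (SD) over the 77 NAc libraries, 15.86 ± 0.28 over the 70 of DMS and 15.73 ± 0.18 over the 70 of DLS, above 99.8% of listed genes in each. Its libraries ran from 14.57 to 16.03 around a median of 15.59 in NAc, from 15.23 to 16.41 (median 15.85) in DMS and from 15.34 to 16.09 (median 15.76) in DLS. The 3 ranges of Penk overlapped, with 16 of 70 DMS libraries above the highest DLS library. The tables were normalised separately, so levels of different regions are described and not tested.

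Tac1 was nearly level across the striatum. Its mean was 11.93 ± 0.33 in NAc, 12.08 ± 0.31 in DMS and 12.09 ± 0.20 in DLS. Lowest, median and highest libraries were 11.08, 11.97 and 12.64 in NAc, 11.45, 12.06 and 12.65 in DMS, and 11.63, 12.14 and 12.51 in DLS. These ranges overlapped too, and the means of the neighbours DMS and DLS differed by 0.01 on the log2 scale. The DMS mean joins 37 low-class and 33 high-class libraries, with means of 11.84 and 12.35 on either side of the DLS mean. The small gap thus depends on the mix of classes.

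Pdyn stood apart from both, with a ventral to lateral fall. Its NAc, DMS and DLS means were 12.13 ± 0.31, 11.14 ± 0.25 and 10.004 ± 0.31. The NAc libraries (11.40 to 12.97, median 12.14) lay wholly above the DLS libraries (9.37 to 10.67, median 9.97). The DMS libraries (10.20 to 11.50, median 11.21) lay between, with 66 of 70 above the highest DLS library and 61 of 70 below the lowest NAc library.

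Nts followed the same order at a lower and far more variable level. It averaged 8.53 ± 0.87 in NAc, 7.27 ± 0.65 in DMS and 6.39 ± 0.66 in DLS. Libraries ran from 5.94 to 10.34 (median 8.63), from 6.05 to 8.74 (median 7.17) and from 4.32 to 8.68 (median 6.41), so that the regions overlapped. In DLS these values rest on 12 to 447 reads (median 82), against 204 to 2242 (median 1038) for Pdyn. Cartpt in NAc averaged 9.16 ± 0.79, with libraries from 6.47 to 10.74 around 9.12. The SD of Nts exceeded that of 98.6, 96.7 and 99.0% of genes in NAc, DMS and DLS, and the SD of Cartpt that of 97.9%, whereas Penk in NAc lay at 45.9%.

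**Figure D1:**
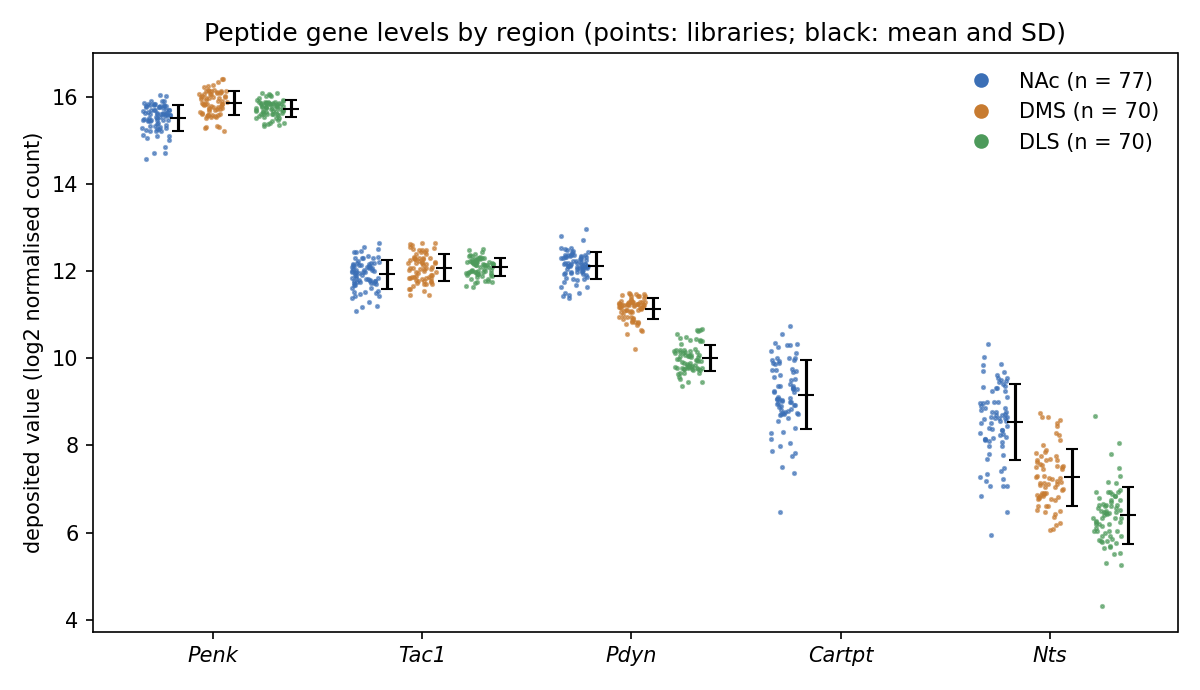
Deposited log2 values of each library (points) with mean and SD (black) for the 5 genes in NAc (n = 77), DMS and DLS (n = 70 each). Penk is highest throughout, the Tac1 means are nearly level, and Pdyn falls from 12.13 in NAc to 10.004 in DLS with no overlap between those regions.

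Compared per length of exon sequence, the order of the genes changed between regions. In NAc the median normalised count per kilobase was 30119 for Penk, 1567 for Pdyn, 1183 for Tac1, 433 for Cartpt and 318 for Nts. In DMS Tac1 (1259) stood above Pdyn (821), and in DLS the gap was wider (1329 against 348). Penk stayed on top with 36161 in DMS and 33845 in DLS, and Nts stayed lowest of those listed with 115 and 67.1.

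A ratio of 2 genes within a library cancels the scale of that library, and the same animals can then be followed across regions. The log2 ratio of Pdyn to Penk had means of -3.39 ± 0.28, -4.72 ± 0.32 and -5.73 ± 0.36 (SD) over the 77 NAc, 70 DMS and 70 DLS libraries. It was higher in NAc than in DMS in 63 of 63 animals, by a mean of 2.495-fold, and higher in NAc than in DLS in 57 of 57, by 5.08-fold. DMS was above DLS in 51 of 51 animals, by 1.97-fold. The smallest of these differences within an animal were 0.46, 1.38 and 0.16 on the log2 scale.

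Nts relative to Penk followed Pdyn, with more scatter: NAc was above DMS in 60 of 63 animals (2.995-fold on average), above DLS in 56 of 57 (5.40-fold), and DMS was above DLS in 43 of 51 (1.80-fold). Nts relative to Pdyn was nearly flat, at -3.60 ± 0.80, -3.87 ± 0.57 and -3.61 ± 0.56 in NAc, DMS and DLS. Tac1 relative to Penk also changed little, at -3.59 ± 0.29, -3.78 ± 0.23 and -3.64 ± 0.25. NAc was above DMS in 40 of 63 animals for this ratio, and DMS above DLS in 13 of 51. The 2 direct-pathway peptides differed in their regional pattern: the NAc, DMS and DLS ratios of Tac1 to Pdyn were -0.20 ± 0.30, 0.94 ± 0.38 and 2.09 ± 0.41, with the ratio lower in NAc than in DMS in all but 1 of 63 animals.

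**Figure D2:**
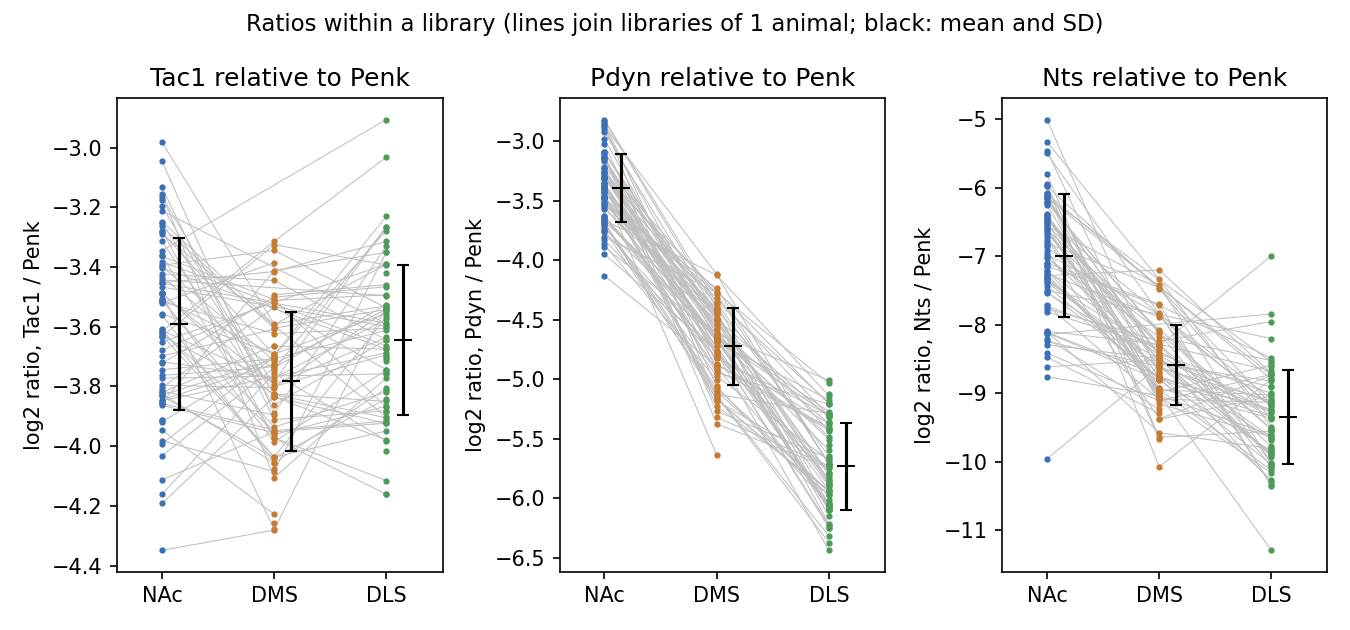
Log2 ratios of Tac1, Pdyn and Nts to Penk within each library, by region, with grey lines joining the libraries of 1 animal and mean with SD in black. Every line between regions falls for Pdyn (63 of 63, 57 of 57 and 51 of 51 animals), most fall for Nts, and those of Tac1 go both ways.

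The 6 times of death let each gene be followed over the day. Tac1, Penk and Pdyn passed a fit of a 24 h cosine in DLS, Tac1 did in DMS, and none of the 5 did in NAc. With time as 6 levels Tac1 alone of the 4 passed in DLS, where 2409 of 11394 genes did. A cosine of 24 h was fitted with limma: the amplitude is the height of the peak above the mean (log2), the fold runs from trough to peak, and a gene passed with a Benjamini-Hochberg adjusted p of less than 0.05 over its table. In DLS 3 of 4 passed, where 21% of all genes did. In DMS it was 1 of 4 against 51.3% of genes, and 2 of 4 against 25.2% with the class term. In NAc it was 0 of 5 against 2.56% of genes, with 0 at an unadjusted p of less than 0.05 and 0 with time as 6 levels. With 4 or 5 genes a share moves in large steps, so these counts are not read as a property of the peptide genes.

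Tac1 rose in the dark. In DLS its libraries at ZT10 had a lowest, median and highest value of 11.66, 11.92 and 12.21 (n = 11), and those at ZT18 of 12.09, 12.26 and 12.51 (n = 12). All 12 libraries at ZT18 lay above the ZT10 median, although the ranges overlapped. The amplitude was 0.16 ± 0.03 (SE, n = 70) with a peak at 18.03 h, or 1.25-fold from trough to peak (limma, adjusted p 3.62e-05). That amplitude was larger than that of 91.4% of genes in the table.

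In DMS the Tac1 libraries ran from 11.45 to 12.38 (median 11.85) at ZT6 and from 11.81 to 12.63 (median 12.35) at ZT18, with n = 12 each. The amplitude was 0.19 ± 0.05 with a peak at 16.2 h, 1.30-fold (adjusted p 0.00387). With the class term it was 0.10 ± 0.03 at 19.5 h, 1.146-fold (adjusted p 0.0145). The high class held 10 of the 12 libraries at ZT18, so the fit without the term mixes class with time. Each time held libraries of both classes, which lets the term be fitted. Within the 37 low-class libraries alone the amplitude was 0.08 at 19.4 h (adjusted p 0.353), and within the 33 of the high class 0.12 at 19.8 h (adjusted p 0.0625). Neither passed, and these fits were chosen after seeing the data. The fit with the class term holds the same libraries, so a like peak time is no separate support.

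In NAc Tac1 ran from 11.39 to 12.43 at ZT2 (median 11.77, n = 13) and from 11.08 to 12.64 at ZT22 (median 12.14, n = 14). The ranges were wide and the ZT22 range enclosed the other. The fitted amplitude of Tac1 in NAc was 0.13 ± 0.05 at 17.8 h and did not pass (adjusted p 0.335).

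Penk, the enkephalin gene, had its DLS peak about lights on. Libraries at ZT14 ran from 15.34 to 15.80 (median 15.65, n = 12) and those at ZT22 from 15.54 to 16.09 (median 15.85, n = 12). The amplitude was 0.10 ± 0.03 at 23.3 h, 1.16-fold (adjusted p 0.0203). In DMS Penk did not pass (0.05 ± 0.04, adjusted p 0.603), and with the class term it passed with 0.11 ± 0.04 at 0.44 h, 1.17-fold (adjusted p 0.0418). This call was lost without any 1 of 18 of the 70 libraries, with an adjusted p of at most 0.0747, reached without the male M21 at ZT14. It was also lost with the mitochondrial share (adjusted p 0.0714) or the position covariate (0.0633) added. In NAc the amplitude of Penk was 0.10 ± 0.05 at 21.4 h (adjusted p 0.461).

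Pdyn ran against Tac1 in DLS. Its libraries at ZT2 ran from 9.65 to 10.67 (median 10.07, n = 11) and those at ZT18 from 9.37 to 10.19 (median 9.81, n = 12). The amplitude was 0.16 ± 0.05 with a peak at 4.98 h, in the light, 1.25-fold (adjusted p 0.0259). Neither Penk nor Pdyn passed in DLS when time was fitted as 6 levels (adjusted p 0.099 and 0.138) or with 12 h terms added (0.0686 and 0.0816), and Tac1 did under both. In DMS Pdyn had an amplitude of 0.05 ± 0.04, or 0.08 ± 0.04 with the class term (adjusted p 0.48 and 0.259). In NAc, where Pdyn was most abundant, it was 0.02 ± 0.05 (adjusted p 0.977).

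**Figure D3:**
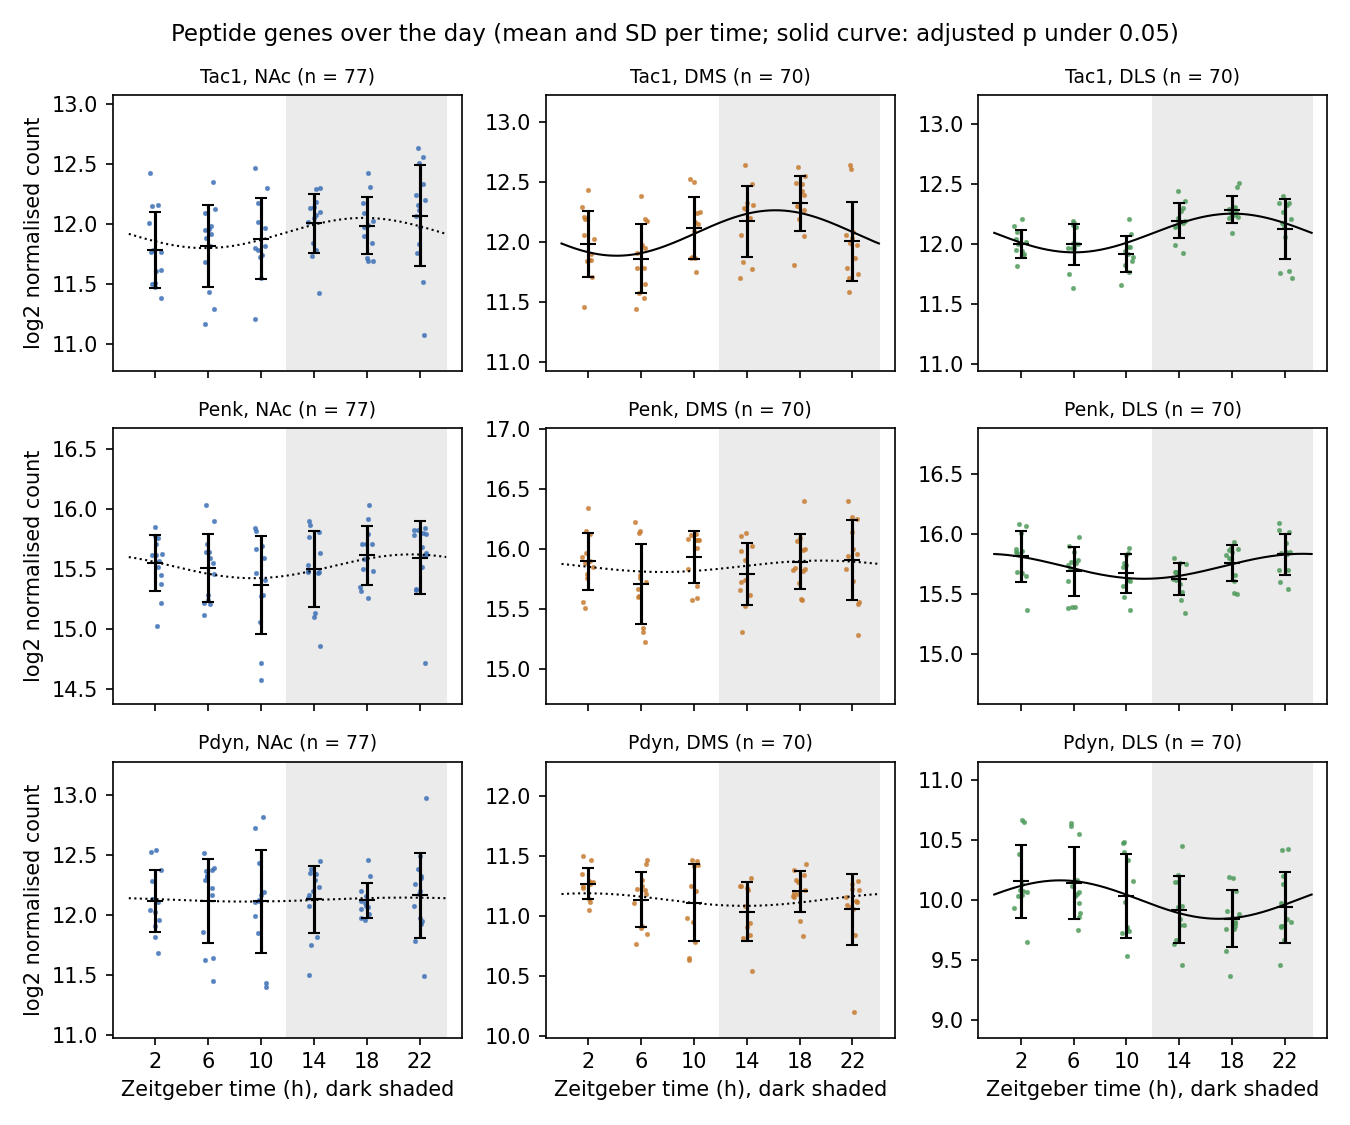
Library values (points), mean and SD at each time, and the fitted 24 h cosine for Tac1, Penk and Pdyn in NAc, DMS and DLS, with the dark phase shaded and a solid curve where the adjusted p was under 0.05. In DLS Tac1 peaks at 18.03 h and Pdyn at 4.98 h.

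In DLS libraries the log2 ratio of Tac1 to Pdyn was higher on average in the dark. A rise of Tac1 alone would raise this ratio, so it is no separate evidence for the course of Pdyn. The ratio averaged 1.85 ± 0.30 at ZT2 (n = 11), 1.85 ± 0.41 at ZT6 (n = 12) and 1.89 ± 0.39 at ZT10 (n = 11). In the dark it was 2.27 ± 0.33 at ZT14, 2.44 ± 0.25 at ZT18 and 2.19 ± 0.37 at ZT22 (n = 12 each). The ratio needs no library scale, and libraries at ZT2 (1.35 to 2.29) and ZT18 (2.09 to 2.89) overlapped little. In NAc the same ratio moved from -0.33 ± 0.33 at ZT2 to -0.09 ± 0.36 at ZT22, with Pdyn means of 12.12 and 12.16 at those times.

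Nts and Cartpt did not pass in any region. Nts had the largest fitted amplitude of the 5 in NAc, 0.30 ± 0.13 at 22.5 h, or 1.51-fold, larger than that of 98.6% of genes, but its scatter between libraries was large as well (adjusted p 0.401). In DMS its amplitude was 0.04 ± 0.11, or 0.14 ± 0.11 with the class term (adjusted p 0.942 and 0.569), and in DLS 0.17 ± 0.11 (adjusted p 0.463). Without the single DLS library of male M7 at ZT2 the last fell to 0.11 (adjusted p 0.698). Cartpt in NAc had 0.11 ± 0.12 (adjusted p 0.841). A p of this size does not show that either gene was constant over the day.

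**Figure D4:**
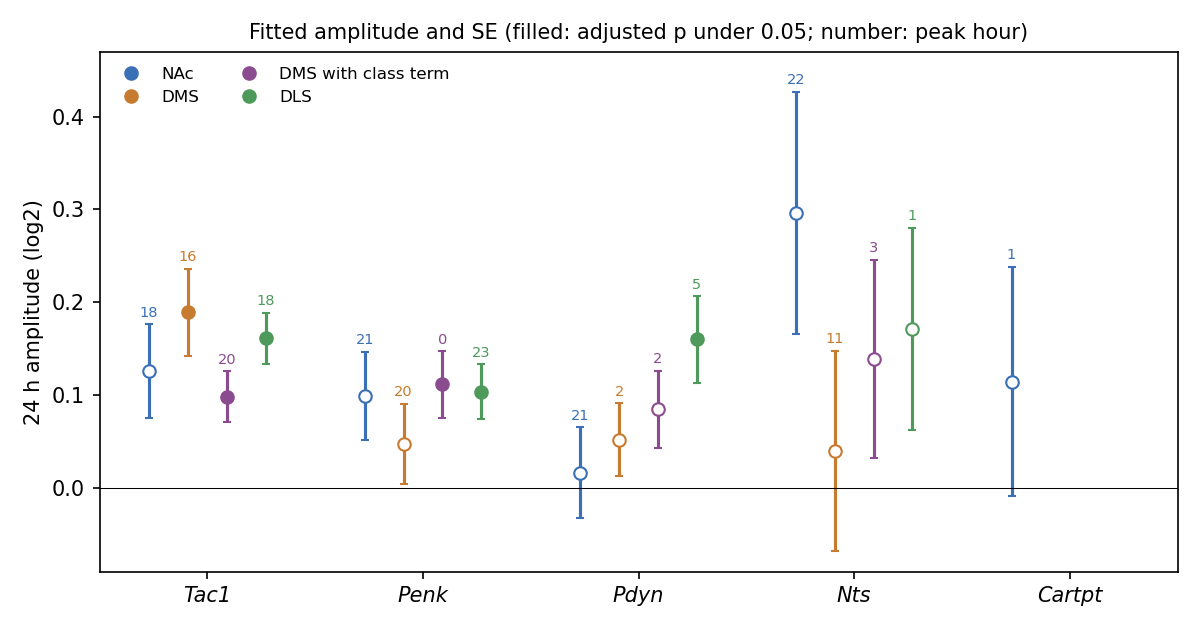
Fitted 24 h amplitude with its SE for each gene and region, filled where the adjusted p was under 0.05, with the peak hour above each point. Tac1 is filled in DMS and DLS, Penk in DLS and in DMS with the class term, and Pdyn in DLS. The Nts amplitude of 0.30 in NAc has an SE of 0.13.

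Dark minus light, the mean of ZT14, 18 and 22 minus that of ZT2, 6 and 10, gives each gene a sign. In DLS 2 of 4 passed, against 8.52% of genes. Tac1 was higher in the dark by 0.23 ± 0.04 (log2, SE, n = 70), 1.17-fold (limma, adjusted p 1.71e-05). Pdyn was lower by 0.21 on that scale, -0.21 ± 0.07, 1.16-fold (adjusted p 0.0377). The Pdyn call was lost without any 1 of 16 libraries, with an adjusted p of at most 0.0599, reached without the male M7 at ZT2. It was also lost with equal-sum scaling (adjusted p 0.0722). Penk and Nts differed by 0.01 ± 0.04 and -0.09 ± 0.16 (adjusted p 0.905 and 0.815).

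In DMS 0 of 4 passed, against 8.4% of genes, with 1 at an unadjusted p of less than 0.05 and 0 with voom on the recovered reads. Tac1 differed there by 0.18 ± 0.07 (adjusted p 0.0791). With the class term 1 of 4 passed, against 14.6% of genes: Tac1 was higher in the dark by 0.11 ± 0.04, 1.08-fold (adjusted p 0.0468), and this call was lost without any 1 of 38 of the 70 libraries (adjusted p at most 0.0754) and with the mitochondrial share added (0.0508). In NAc 0 of 5 passed, against 1.28% of genes, with 1 at an unadjusted p of less than 0.05. The NAc differences were 0.19 ± 0.07 for Tac1, 0.09 ± 0.07 for Penk, 0.02 ± 0.07 for Pdyn, 0.16 ± 0.19 for Nts and -0.07 ± 0.18 for Cartpt.

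Whether the rhythm differed between regions was tested in 1 joint fit over 11283 shared genes, with the animal as a block. For the 4 shared peptide genes no difference passed in any pair of regions. Between NAc and DLS 0 of 4 passed, with 1 at an unadjusted p of less than 0.05, against 0.31% of genes (0.408% with the class term). That gene was Pdyn, named after its values were seen, with a difference of 0.17 between the 2 fitted rhythms (adjusted p 0.477). Between NAc and DMS and between DMS and DLS 0 of 4 passed, with 0 at an unadjusted p of less than 0.05 and 0% of genes in both, with and without the class term. A rhythm that passed in DLS and not in NAc is therefore not shown to differ between them.

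Penk in DMS, with the class term, was the one difference between the sexes that passed. Penk ran from 15.23 to 16.41 (median 16.02) in 34 females and from 15.29 to 16.27 (median 15.75) in 36 males. The ranges overlapped and the male median was lower. In the low class Penk averaged 15.80 ± 0.28 (SD, n = 17) in females and 15.64 ± 0.17 (n = 20) in males, and in the high class 16.13 ± 0.16 (n = 17) and 15.92 ± 0.21 (n = 16). With the class term Penk was lower in males by 0.18 on the log2 scale, -0.18 ± 0.04 (SE, n = 70), 1.13-fold (limma, adjusted p 0.00937), and 1 of 4 passed against 4.21% of genes. Without the term the difference was -0.20 ± 0.06 (adjusted p 0.0796), and 0 of 4 passed against 0.909% of genes, with 3 at an unadjusted p of less than 0.05 and 0 with voom. Within the high class it was -0.20 (adjusted p 0.0342) and within the low class -0.15 (adjusted p 0.405).

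Pdyn and Nts in DMS had the same sign, -0.15 ± 0.05 and -0.29 ± 0.14 with the class term, and did not pass (adjusted p 0.0986 and 0.227). The fitted difference of Nts was thus larger than that of Penk, with a wider SE. Tac1 differed by 0.002 ± 0.04 (adjusted p 0.986). In NAc 0 of 5 passed, against 0.0758% of genes, with differences from -0.29 ± 0.19 (Nts) and -0.21 ± 0.18 (Cartpt) to -0.03 ± 0.07 (Pdyn). In DLS 0 of 4 passed, against 0.202% of genes, with differences from -0.10 (Pdyn) to 0.06 (Nts). No peptide gene reached an unadjusted p of less than 0.05 in either region, and voom gave 0 in DLS.

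No difference of rhythm between the sexes passed for any peptide gene in NAc (0 of 5), DMS (0 of 4, and 0 of 4 with the class term) or DLS (0 of 4), where 0% of all genes passed in each fit. At an unadjusted p of less than 0.05 there was 1 in NAc, 0 in DMS, 2 in DMS with the class term and 0 in DLS, and voom gave 0 in DMS and DLS. Those 2 were Tac1 and Penk, named after their values were seen. With the class term Tac1 had an amplitude of 0.18 in females and 0.02 in males, and Penk peaked at 22.2 h in females and 3.62 h in males (adjusted p 0.435 and 0.434). The one in NAc was Pdyn, with a peak at 9.42 h in females and 21.3 h in males (adjusted p 0.979).

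The class of the DMS libraries moved 3 of the 4 peptide genes. Tac1 averaged 11.84 ± 0.18 (SD, n = 37) in the low class (11.45 to 12.19) and 12.35 ± 0.17 (n = 33) in the high class (11.95 to 12.65), a difference of 0.50 ± 0.04 (SE, limma, adjusted p 1.35e-16). Penk differed by 0.39 ± 0.05 (adjusted p 1.66e-10) and Nts by 0.48 ± 0.16 (adjusted p 0.0048), and Pdyn, with 0.08 ± 0.06, did not pass (adjusted p 0.243). All 4 were higher in the high class. Of all genes 78.5% differed between the classes, so 3 of 4 is near the background. Scaling each library to an equal sum outside ribosomal RNA genes lowers the high class by 0.12 relative to the low class. That shift narrows the class differences, and it is less than that of Tac1, Penk or Nts and more than that of Pdyn. The labels do not name the classes.

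**Figure D5:**
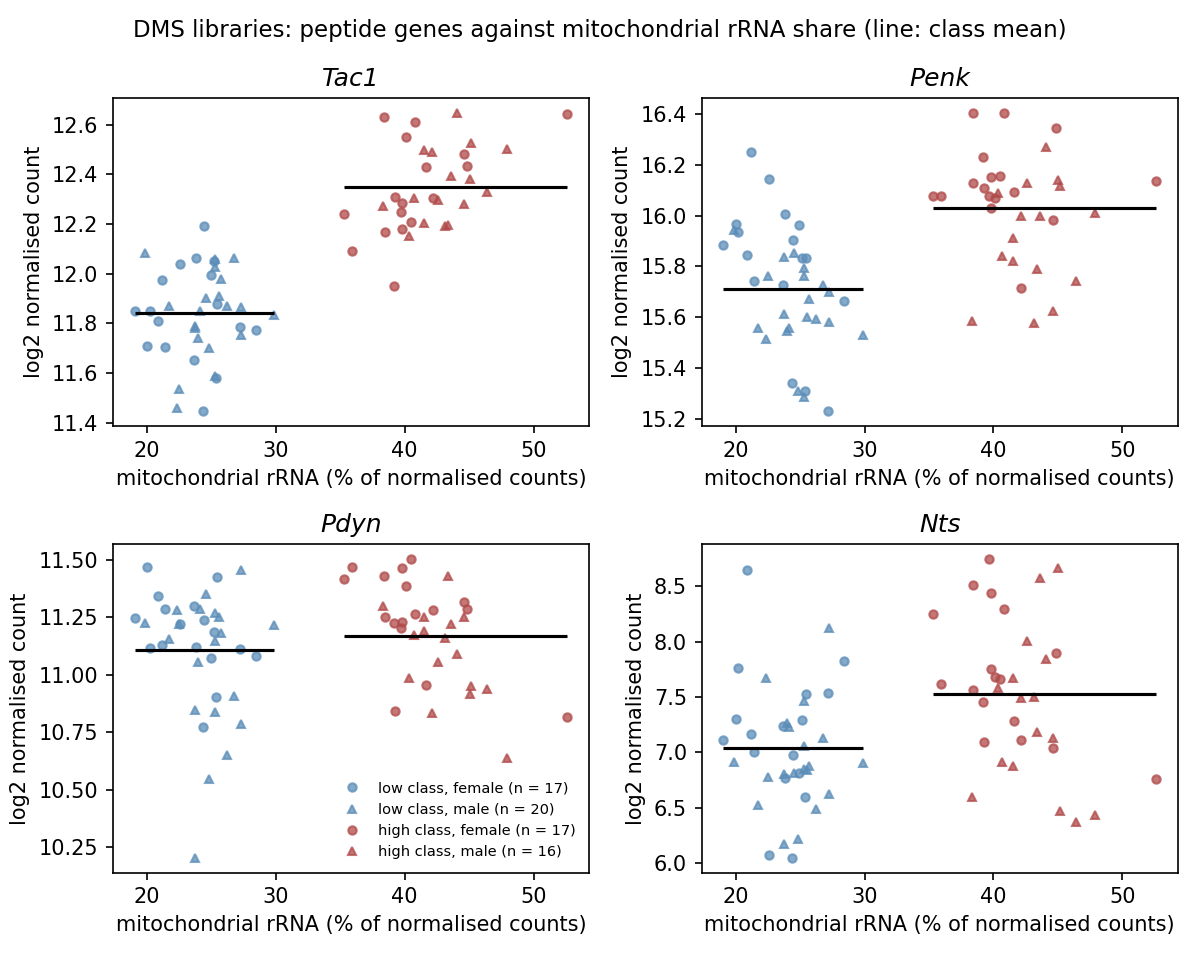
Deposited log2 values of Tac1, Penk, Pdyn and Nts in the 70 DMS libraries against the share of mitochondrial rRNA, coloured by class with circles for females, triangles for males and a line at each class mean. Tac1 steps from 11.84 to 12.35 between classes, while the classes of Pdyn lie together.

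Libraries also varied together within a group. After sex, time and, in DMS, class were removed, Pdyn and Nts correlated across libraries with r = 0.40 in NAc (n = 77), 0.39 in DMS and 0.55 in DLS (n = 70 each). In NAc Cartpt correlated with both, r = 0.51 with Pdyn and 0.51 with Nts. Tac1 and Penk, of different pathways, had r = 0.61 in NAc, 0.54 in DMS and 0.18 in DLS, and Tac1 and Pdyn, of the same pathway, 0.59, -0.04 and -0.06. The libraries compared share the punch, the depth and the normalisation of each value, so these are descriptions without a test.

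The genes whose residual pattern was most like each peptide gene, by the mean r over the 3 regions among 11279 shared genes, differed between the 5. For Penk they were Hpca (0.79), a calcium sensor, Adora2a (0.79 on average and 0.87 in NAc), the adenosine receptor of indirect-pathway neurons, and Ppp1r1b (0.77), which encodes the phosphoprotein DARPP-32. For Tac1 they were Gabra4 (0.71), a GABA receptor subunit, Arpp19 (0.70) and Klhl13 (0.69). For Pdyn the values were lower: Strip2 (0.54), Prkch (0.54), a protein kinase C, and Wfs1 (0.54), which is also one of the ventral position markers. For Nts they were Lypd1 (0.41, and 0.13 in DMS), Chn2 (0.40) and Fam126a (0.38). For Cartpt, over 11862 genes of NAc alone, Lypd1 led again (0.81), before Trhr (0.77), a receptor for thyrotropin-releasing hormone, and Stard5 (0.68).

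Markers of position within the striatum varied with the peptide genes. The median r with the 2 dorsolateral markers (Cnr1 and Gpr155) was -0.46, -0.34 and -0.47 for Pdyn in NAc, DMS and DLS, -0.39, -0.14 and -0.41 for Nts, and -0.51 for Cartpt in NAc. For Penk it was 0.07, 0.58 and 0.24, and for Tac1 -0.09, 0.405 and 0.17. With the 4 ventral markers the median r was 0.34, 0.17 and 0.29 for Pdyn, 0.25, 0.03 and 0.19 for Nts, and 0.28 for Cartpt in NAc. For Penk the ventral values were 0.24, 0.06 and 0.21, and for Tac1 -0.05, -0.08 and -0.08. Penk was thus positive with both lists, and in NAc more with the ventral one. With the log2 difference of Crym and Cnr1 as a covariate for position, the DLS rhythms were 0.16 for Tac1 (adjusted p 4.89e-05), 0.14 for Penk (0.00207) and 0.18 for Pdyn (0.0114). Both dorsolateral markers passed the rhythm test in DLS themselves, Cnr1 with 0.16 ± 0.03 at 0.002 h, close to the Penk peak, and Gpr155 with 0.15 ± 0.03 at 19.2 h, so this covariate carries time of day as well. Penk also ran against cortical markers, with a median r of -0.30, -0.53 and -0.53 in NAc, DMS and DLS. None of the 4 cortical markers listed in DLS passed the rhythm test there (0 of 4), and the part of cortical tissue in the Penk values was not tested.

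The genes that cut and store peptides were followed over the day beside the precursors. Of 16 genes for processing and granules, all listed in every region, 4 passed the rhythm test in DLS (2 with a peak in the dark and 2 in the light), 4 in DMS with the class term, 10 in DMS without it and 1 in NAc. Of all genes 21% passed in DLS, 25.2% in DMS with the class term, 51.3% without it and 2.56% in NAc, and these shares are the background of every list below. The counts of 4 of 16 lie near theirs. The largest amplitudes in DLS were those of Pcsk1, a convertase, with 0.27 ± 0.06 at 19.1 h (1.46-fold), Vgf, a granule protein, with 0.25 ± 0.04 at 23.1 h (1.42-fold), and Scg2, secretogranin II, with 0.22 ± 0.03 at 0.64 h (1.37-fold). The adjusted p were 0.00144, 6.24e-06 and 1.42e-08. The same 3 genes led in DMS with the class term, with amplitudes of 0.24, 0.28 and 0.27, and Scg2 was the gene that passed in NAc (0.15 ± 0.04 at 1.4 h, adjusted p 0.0366). The Pcsk1 peak in DLS lay close to that of Tac1, and those of Vgf and Scg2 close to that of Penk. Peaks of genes in other lists below lay as close, and peak times were not compared in a test. With a median amplitude of 0.05 in DLS against 0.07 over all genes, the list as a whole was not high.

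Of 8 listed peptide receptors, 2 passed in DLS, both with a peak in the light, a share near the 21% of all genes. Oprk1, the dynorphin receptor, had an amplitude of 0.24 ± 0.07 at 8.39 h (1.40-fold, adjusted p 0.0346) and Oprl1, the nociceptin receptor, 0.16 ± 0.04 at 6.92 h (adjusted p 0.00311). In DMS with the class term 2 passed, Oprm1, the mu receptor (0.22 ± 0.05 at 21.3 h, adjusted p 0.00605), and Oprl1 (0.14 ± 0.04 at 7.62 h). Without the term 5 of 8 did, and in NAc 0 did. Of 9 peptide degrading enzymes Mme, neprilysin, which cleaves enkephalins, passed in DLS (0.18 ± 0.03 at 20.5 h, adjusted p 3.2e-06) and in DMS with the class term (0.16 ± 0.03 at 18.6 h), where Dpp3 passed as well (0.10 ± 0.03 at 3.39 h). Without the term 2 of 9 passed, Mme and Ece1, and in NAc 0 of 9. Of the other neuropeptide genes, 3 of 4 listed passed in DLS: Pthlh (0.24 ± 0.06), Sst (0.20 ± 0.06) and Npy (0.18 ± 0.06), with peaks between 23.1 and 23.2 h, while 0 of 5 passed in NAc. In DMS 0 of 4 passed with the class term and 3 of 4 without it, with Sst at 0.47 ± 0.14 (peak at 1.87 h), Npy at 0.37 ± 0.11 and Pthlh at 0.18 ± 0.06.

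The markers of each pathway were set beside its peptides. In DLS, against 21% of all genes, 2 of 7 direct-pathway markers passed: Sfxn1, a mitochondrial serine transporter, with 0.27 ± 0.03 at 21.2 h, and Chrm4, a muscarinic receptor, with 0.12 ± 0.03 at 9.76 h. Of 5 listed indirect-pathway markers Adora2a alone passed there, with 0.09 ± 0.03 at 1.29 h. In DMS with the class term Sfxn1 and Slc35d3, and Adora2a and Drd2, passed (2 of 7 and 2 of 5), against 5 of 7 and 4 of 5 without the term. In NAc Sfxn1 alone passed, with 0.13 ± 0.03 at 20.02 h. Of the 12 shared markers 7 passed in DLS, led by Rgs9 (0.15 ± 0.03 at 4.65 h), Pde10a (0.14 ± 0.03 at 22.9 h) and Ptpn5 (0.13 ± 0.02 at 23.1 h), and 7 in DMS with the class term (9 without it). In NAc 0 of 12 passed.

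Of 9 genes that regulate peptide transcription, those that passed in DLS, and in DMS with the class term, peaked in the dark, as did 52.1% and 55% of all genes that passed in those fits. In DLS 3 of 9 passed: Kcnip3, the repressor DREAM known from the Pdyn gene, with 0.26 ± 0.03 at 14.2 h (1.43-fold, adjusted p 1.55e-09), Egr1, an activity-induced factor, with 0.24 ± 0.07 at 18.7 h (adjusted p 0.0408), and Jund, with 0.07 ± 0.02 at 23.6 h (adjusted p 0.0175). In DMS with the class term 6 of 9 passed, led by Nr4a1 (0.53 ± 0.15 at 17.8 h), Egr1 (0.40 ± 0.06 at 19.1 h) and Fosb (0.34 ± 0.09 at 16.7 h), and in NAc 0 of 9 did. Without the term 2 of 9 passed in DMS, Egr1 (0.39 ± 0.08 at 20.9 h) and Jund (0.06 ± 0.02 at 1.16 h, in the light). The median dark minus light of the list was 0.18 in DLS, 0.44 in DMS with the class term, 0.29 without it and 0.06 in NAc. Over all genes these medians were -0.001, -0.004, -0.003 and -0.003. In the same order 2, 4, 2 and 0 of the 9 passed dark minus light, against 8.52, 14.6, 8.4 and 1.28% of all genes. The list was chosen with earlier results of these data known, so its medians are a description without a test. Creb1, whose product binds the motif TGACGTCA, had an amplitude of 0.003 ± 0.02 in DLS (adjusted p 0.994).

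Markers of other cells were followed in the same way. In DLS the rhythm test was passed by 1 of 5 oligodendrocyte markers (Mag, 0.14 ± 0.04 at 10.9 h), 0 of 4 astrocyte markers, 1 of 4 microglia markers (Tmem119, 0.14 ± 0.04 at 16.4 h), 3 of 3 endothelial markers (Cldn5 leading with 0.35 ± 0.05 at 23.1 h), 0 of 3 cholinergic markers and 0 of 4 markers of GABA interneurons. Their summed levels in DLS ran from 56098 to 118341 normalised counts for oligodendrocytes and from 2125 to 3696 for endothelial cells, and their part in the peptide rhythms was not tested.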

How the data were processed

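Striatal punches of 93 mice gave 217 RNA-seq libraries. Per the series' design text and the submitters' processing notes, the authors aligned paired 75 base reads from a stranded total RNA kit with HISAT2 2.1.0 to Ensembl GRCm38 and counted them with HTSeq 0.10.0 in union mode. FastQC and Trimmomatic are listed as well, and GRCh38 is listed as a build. The authors filtered each region, normalised it with DESeq2 and deposited log2 values, which are the unit used here. Strand use in counting is not given in the sources used here.

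Whole reads were recovered from the deposited values of DMS (35711640 to 57468484 per library) and DLS (29719087 to 56799764), with 100% of values whole within 0.01 reads. These totals include ribosomal RNA. Outside it the libraries held 14.075 to 39.194 M reads in DMS and 4.412 to 34.571 M reads in DLS. In NAc a median of 1.98% came out whole and 9 values lay below 0, so its depth is unknown. The deposited DLS table lists 11394 genes, and the design text states 11395.

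Each region was fitted on its whole table with limma 3.58.1 (R 4.3.3) with a variance trend: a 24 h cosine and sine with sex (rhythm), time as 6 levels with sex (dark minus light, male minus female), and rhythm by sex. A joint fit over regions took the animal as a block (estimated correlation 0.039), since animals gave several regions. A term for the class of mitochondrial ribosomal RNA share, split at 32%, was added in DMS. Calls used a Benjamini-Hochberg adjusted p under 0.05 over all genes. Correlations used residuals after sex, time and DMS class. Scripts were tested on simulated data. Tables were handled in Python 3.11.15 with pandas 2.3.3 and numpy 2.4.6.

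Genes named are the 5 peptide genes, the 3 genes most like each, and from each list at most 3 genes per region that passed the rhythm test, by amplitude. The members and lists were chosen with earlier results of these data known. Alternatives covered scaling, filters, pseudocount, covariates, voom, replicate block and each library left out.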

Additional observations from a re-analysis of the deposited data

Results flagged for a closer look

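Each peptide gene was looked at in each group of 1 sex, time and region, 156 combinations of gene and group in all, and in 12 of them 1 library stood far from the others. Chance alone gives about 1 in 20, and all values are log2 of normalised counts.

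Tac1 was low in the NAc library of female F41 at ZT14 (11.43, others 12.05 to 12.30) and high in the DLS library of female F48 at ZT18 (12.51, others 12.21 to 12.31). Penk was low in NAc of female F10 at ZT2 (15.02, others 15.56 to 15.85) and in DMS of female F18 at ZT10 (15.83, others 16.08 to 16.13), and high in DMS of male M34 at ZT6 (16.14, others 15.60 to 15.79).

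Pdyn was high in NAc of female F33 at ZT2 (12.54, others 11.96 to 12.13) and of male M3 at ZT22 (12.97, others 11.95 to 12.38), and low in DMS of male M44 at ZT18 (10.83, others 11.16 to 11.30). Nts was high in NAc of male M26 at ZT18 (10.02, others 8.17 to 8.70), in DMS of male M34 at ZT6 (8.66, others 6.78 to 7.18) and in DLS of male M7 at ZT2 (8.68, others 5.70 to 6.65). Cartpt was high in NAc of male M32 at ZT2 (10.34, others 8.71 to 9.37). The same DMS library of male M34 thus stood high for Penk and Nts.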

How the results depend on the processing

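Each gene was counted once per region and alternative, and a result without a call that stayed so counts as kept. Of the rhythm results counted so, 150 kept their outcome, 9 lost a call and 3 gained one. All 9 losses fall on the 3 calls in DLS, 1 in DMS and 2 in DMS with the class term. For dark minus light these counts were 119, 3 and 3, with 7 changes of sign, and for sex 122, 0 and 4, with 6. The 132 results on sex and rhythm and the 36 on regions kept theirs. Where no cause is named below, the cause was not tested.

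The DLS rhythm count of 3 became 1 with time as 6 levels and 1 with 12 h terms. Dark minus light in DLS went from 2 to 1 genes with equal-sum scaling, where Pdyn had -0.20 (adjusted p 0.0722). In DMS the rhythm count of 1 became 2 with the number range term, the class term or the mitochondrial share, and 0 within the low or the high class. Dark minus light in DMS went from 0 to 1 with the number range term, the class term or within the high class, and the sex count from 0 to 1 with the class term, equal-sum scaling, the mitochondrial share or within the high class. With the class term, the rhythm count fell from 2 to 1 with the mitochondrial share or the position covariate, and dark minus light from 1 to 0 with the mitochondrial share.

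Animal numbers shared by a male and a female are not shown to pair the libraries, and pairing is not excluded. The median residual r of such pairs was -0.142, -0.136 and 0.004 in NAc, DMS and DLS. Single pairs ran from -0.43 to 0.341, from -0.371 to 0.096 and from -0.513 to 0.287. These residuals had time, sex, number range and DMS class removed. The block correlation in the rhythm fit, with neither number range nor class removed, was -0.024, 0.225 and 0.148. With the number as a replicate block, 2 genes kept a rhythm in DLS (Pdyn adjusted p 0.0501) and 1 differed between dark and light (Pdyn -0.21, adjusted p 0.0639), while the counts of peptide genes in NAc and DMS were the same. Without the animal as a replicate block the joint fit also gave 0 genes in each pair of regions.

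Signs changed for differences that did not pass in either fit. Pdyn dark minus light in NAc (0.02) was -0.04327 with the position covariate and -0.01 with equal-sum scaling (-0.00783). Penk dark minus light in DMS (0.02) was -0.03 with the class term (-0.03353), -0.04 with the mitochondrial share (-0.03737), -0.01 with equal-sum scaling (-0.01405) and -0.05 within the high class (-0.0455). Nts dark minus light in DMS (-0.14) was 0.12 within the low class. Tac1 male minus female in DMS (-0.03) was 0.001623 with the class term, 0.08676 with the number range term and 0.002132 within the high class, and with the class term and mitochondrial share it was -0.05 (-0.04662). In DLS, with equal-sum scaling, Tac1 was -0.01 (-0.01132) and Penk -0.03 (-0.02884).

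With each library left out in turn, the rhythm counts stayed 0 in NAc, 1 in DMS and 3 in DLS, where the highest adjusted p were 0.000103 for Tac1, 0.0381 for Penk and 0.0473 for Pdyn. The rhythm count in DMS with the class term ran from 1 to 2, dark minus light from 1 to 2 in DLS, 0 to 1 in DMS and 0 to 1 in DMS with the class term, and sex in DMS from 0 to 1. The calls gained in DMS were Tac1 dark minus light without F25 at ZT14, F28 at ZT18, M21 at ZT14 or M34 at ZT6 (adjusted p 0.0433 to 0.0481), and Penk male minus female without F11, F14 or M34 at ZT6 or M47 at ZT22 (adjusted p 0.0338 to 0.0461). Tac1 male minus female in DMS with the class term ran from -0.006966 to 0.01404. In DLS Penk dark minus light ran from -0.002301 to 0.02221, below 0 without male M17 at ZT10, and Penk male minus female from -0.00542 to 0.02117, below 0 without female F4 at ZT22.

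Over all genes, the rhythm count was 2392 in DLS and 1477 with equal-sum scaling. That scaling shifted DLS libraries by -0.799 to 0.081 on the log2 scale, against -0.201 to 0.116 in DMS. Whether the equal-sum changes in DLS rest on a single library was not tested. In DMS the rhythm count was 6207, against 3051 with the class term, 3772 with the number range term, 3459 with the mitochondrial share, 948 within the low class and 1811 within the high class. In NAc it was 304, against 508 with the mitochondrial share and 183 with time as 6 levels. The fits within a class, and those that added a covariate to the class term, were chosen after seeing the data. Few reads limit Nts in DLS.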
